A study of Oryza sativa Japonica Group with 6 samples.

Results

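The genes described here are the 9 cellulose synthase genes *OsCesA1* to *OsCesA9* of rice and *BC1* (BRITTLE CULM1), 10 genes of the 42189 listed in the deposited table. They were taken by their locus identifiers, as a list chosen with earlier results of these data known. All 10 were among the 21531 genes that reached a mean of at least 1 TPM and were tested. TPM scales each library to the same total and corrects for gene length, so that levels of different genes can be set side by side. The names OsCesA1 to OsCesA9 and BC1 all stand in the RefSeq gene table of rice on the chromosome that the locus identifier names.

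Young panicles before heading were compared between NIL-hfr131 and 187R by RNA-seq, with 3 libraries of each line. NIL-hfr131 is a near-isogenic line that carries hfr131, an allele of the brassinosteroid receptor gene *OsBRI1* from the wild rice *Oryza longistaminata*, on a chromosome segment introgressed from that donor. 187R is the *indica* restorer line that was the recipient parent and carries the HFR131 allele, and GEO's organism label nevertheless reads Japonica Group. Both lines were labelled as panicle under natural treatment, and the comparison is between lines that can differ at every gene of the introgressed segment, not at *OsBRI1* alone. The labels number the libraries as biological replicates without saying whether they came from separate plants. The *P* values set the difference between the lines against the spread between these libraries, and what that spread stands for is therefore not known.

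Cellulose is made at the plasma membrane by complexes of cellulose synthase (CESA) proteins, each of which draws glucose chains out into the wall where they bundle into microfibrils. Growing cells lay a primary wall that can still extend, and conducting and supporting cells, such as those of xylem and sclerenchyma, later add a thick secondary wall inside it. Different CESA proteins serve the 2 kinds of wall. In rice, *OsCesA4*, *OsCesA7* and *OsCesA9* serve the secondary wall, and mutants in these genes have brittle stems, while *OsCesA1*, *OsCesA3* and *OsCesA8* serve the primary wall. BC1 is a COBRA-like protein that binds cellulose at the cell surface and is needed for strong secondary walls. In Arabidopsis, a transcription factor activated by brassinosteroid binds upstream of many *CESA* genes, which is the background for reading these genes in a line with a changed brassinosteroid receptor.

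One library has to be known before the values are read. Across genes, NIL-hfr131 replicate 3 correlated at 0.916 to 0.937 (Pearson) with the remaining 5 libraries, which among themselves reached 0.982 to 0.991. Its log2 level was more than 1 above the 187R mean in 2551 of the 21531 tested genes (11.8%), against 124 genes (0.576%) for the mean of NIL-hfr131 replicates 1 and 2. The line comparison of each of the 10 genes is therefore given with and without this library. Panicle identity was checked by markers, and the 5 floral organ genes of the marker list (*OsMADS1*, *OsMADS6*, *OsMADS16*, *OsMADS3* and *DL*) summed to 1478 to 1690 TPM in NIL-hfr131 and 1370 to 1599 TPM in 187R. The sum hides differences between single genes. Every NIL-hfr131 library was below every 187R library in *OsMADS6* (means of 136 and 161 TPM) and above in *OsMADS3* (112 and 89.1 TPM), and the others overlapped. Whole panicles were used, so a change in the number of cells of a type and a change in RNA per cell cannot be told apart.

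All 10 genes had a higher mean level in NIL-hfr131 than in 187R, and 0 of the 10 passed the test across all genes with the 6 libraries. The log2 fold change was positive in all 10, where it was positive in 57.6% of all tested genes. Without NIL-hfr131 replicate 3 it was positive in all of them except *OsCesA2*, against 42.3% of tested genes. Fold changes were computed on log2(TPM + 1) with limma, with *P* values adjusted over all 21531 tested genes by the Benjamini-Hochberg method and a threshold of 0.05. By this test 54 genes were higher in NIL-hfr131, which is 0.251% of the tested genes. At an unadjusted *P* under 0.05, 5 of the 10 were higher (*OsCesA4*, *OsCesA7*, *OsCesA8*, *OsCesA9* and *BC1*), against 4.05% of tested genes. In 7 of the 10, every NIL-hfr131 library lay above every 187R library, which was the case in 8.59% of tested genes. The median log2 fold change of the 10 genes was 0.76, and that of all tested genes was 0.05. With 3 libraries against 3, an exact permutation test of 1 gene cannot give a two-sided p below 0.1. Without NIL-hfr131 replicate 3, the 10 genes had a median of 0.38 against -0.03 over all tested genes, and 3 of them (*OsCesA7*, *OsCesA9* and *BC1*) rose at an adjusted *P* under 0.05, as did 1.31% of the genes tested in those 5 libraries. In the same 5 libraries, 7 of the 10 were higher at an unadjusted *P* under 0.05 (6.91% of tested genes), and 7 of the 10 had every NIL-hfr131 library above every 187R library (13% of tested genes).

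All 3 secondary-wall synthases had every NIL-hfr131 library above every 187R library. *OsCesA7* (LOC_Os10g32980, chromosome 10), the counterpart of Arabidopsis *CESA4*, had 115, 116 and 214 TPM in NIL-hfr131 replicates 1, 2 and 3, against 67.1, 73.5 and 73.0 TPM in 187R replicates 1, 2 and 3. NIL-hfr131 replicates 1 and 2 were almost equal, and replicate 3 was 1.86 times their mean. The averages were 148 ± 57.0 TPM in NIL-hfr131 and 71.2 ± 3.52 TPM in 187R (SD, n = 3 each), and the log2 fold change was 0.99 (SE 0.24, adjusted p = 0.293, limma). Leaving that replicate out gave a smaller value, 0.69, with a smaller standard error, 0.079, and an adjusted p of 0.00900.

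*OsCesA9* (LOC_Os09g25490, chromosome 9), the counterpart of Arabidopsis *CESA7*, had 111, 112 and 168 TPM in the 3 NIL-hfr131 libraries and 70.9, 71.2 and 75.0 TPM in the 3 187R libraries. Again the lines were apart and only NIL-hfr131 replicate 3 left its group. NIL-hfr131 averaged 130.1 ± 32.4 TPM and 187R 72.4 ± 2.29 TPM (SD, n = 3 each), a log2 fold change of 0.81 (SE 0.18, adjusted p = 0.224, limma). Leaving out NIL-hfr131 replicate 3 gave 0.62 (SE 0.074, adjusted p = 0.0109). Replicates 1 and 2 of NIL-hfr131 were thus 1.54 times the 187R mean for *OsCesA9* and 1.62 times for *OsCesA7*.

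*OsCesA4* (LOC_Os01g54620, chromosome 1), the counterpart of Arabidopsis *CESA8*, had the smallest difference of this group. Its level was 114, 121 and 177 TPM in the NIL-hfr131 libraries, against 92.4, 81.1 and 93.4 TPM in the 187R libraries. The lowest NIL-hfr131 library was above the highest 187R library. Means were 137 ± 34.3 TPM in NIL-hfr131 and 89.0 ± 6.86 TPM in 187R (SD, n = 3 each), with a log2 fold change of 0.60 (SE 0.18, adjusted p = 0.433, limma) that was 0.40 (SE 0.091, adjusted p = 0.0920) without NIL-hfr131 replicate 3, short of the threshold in both fits.

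*OsCesA4* is also the only one of the 10 genes on the same chromosome as *OsBRI1*. Its locus number is 2570 above that of *OsBRI1* (54620 against 52050), and locus numbers follow the order of genes along a chromosome. Whether it lies in the introgressed segment was not tested. Of the 56 tested genes within 500 locus numbers of *OsCesA4*, 0 passed the test in limma, with or without NIL-hfr131 replicate 3. Among all genes, 66 of 21531 passed with all libraries and 384 of 21276 without that replicate, so 0 of 56 is near these shares. The median log2 fold change of the 56 genes was -0.0030 with all libraries and -0.050 without that replicate.

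*BC1* (LOC_Os03g30250, chromosome 3) was the one gene of the 10 in which NIL-hfr131 replicate 3 was not the highest library of its line. It had 111, 122 and 108 TPM in the NIL-hfr131 libraries and 79.2, 55.9 and 66.7 TPM in the 187R libraries. The lines did not overlap, and here the wider spread was in 187R, where the highest library was 1.42 times the lowest, against 1.14 times in NIL-hfr131. NIL-hfr131 averaged 113 ± 7.83 TPM and 187R 67.3 ± 11.7 TPM (SD, n = 3 each). The log2 fold change of 0.76 had the smallest standard error of the 10 genes (SE 0.15, adjusted p = 0.178, limma), and without NIL-hfr131 replicate 3 it was 0.79 (SE 0.14, adjusted p = 0.0458). The size of this difference therefore hardly depended on that library, and its side of the threshold did.

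**Figure D1:**
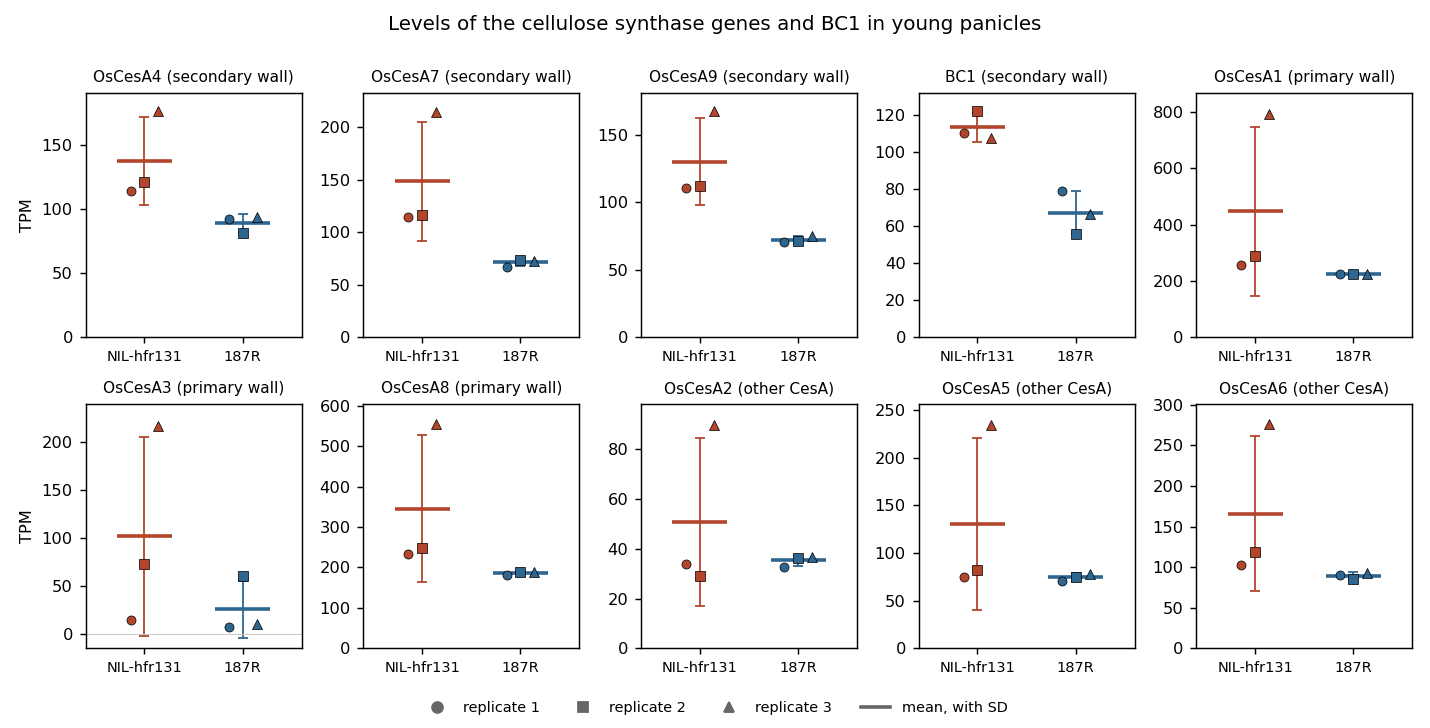
Level in TPM of each of the 10 genes (1 panel per gene, each with its own vertical axis), with NIL-hfr131 on the left and 187R on the right, 1 point per library (circle, square and triangle for replicates 1, 2 and 3), and bars for the mean and SD of 3 libraries. NIL-hfr131 replicate 3 is the highest library of its line in the 9 cellulose synthase genes and the lowest in BC1 (108 TPM).

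*OsCesA1* (LOC_Os05g08370, chromosome 5), a core subunit of the primary-wall complex, was the most abundant of the 10 genes in both lines. Its level was 258, 290.2 and 794 TPM in the NIL-hfr131 libraries, against 225, 225 and 225 TPM in the 187R libraries. The 187R libraries agreed to an SD of 0.462 TPM, all 3 NIL-hfr131 libraries were above them, and replicate 3 was 2.90 times the mean of the other NIL-hfr131 libraries. The mean of NIL-hfr131 was 447 ± 301 TPM and that of 187R 225 ± 0.462 TPM (SD, n = 3 each), which gave a log2 fold change of 0.79 (SE 0.40, adjusted p = 0.666, limma). Without replicate 3 it was 0.28 (SE 0.083, adjusted p = 0.182).

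*OsCesA8* (LOC_Os07g10770, chromosome 7) followed *OsCesA1* in level and in pattern. It had 234, 248 and 555 TPM in the NIL-hfr131 libraries and 182, 189.7 and 188 TPM in the 187R libraries. No NIL-hfr131 library overlapped with 187R, and the excess of NIL-hfr131 replicate 3 (2.31 times the mean of replicates 1 and 2) was larger than the difference between replicates 1 and 2 of NIL-hfr131 and 187R (1.29 times). NIL-hfr131 averaged 346 ± 182 TPM and 187R 187 ± 3.77 TPM (SD, n = 3 each), and the log2 fold change was 0.77 (SE 0.32, adjusted p = 0.589, limma), or 0.36 (SE 0.076, adjusted p = 0.0727) without replicate 3.

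*OsCesA3* (LOC_Os07g24190, chromosome 7), also assigned to the primary wall, was the most variable of the 10 within a line. NIL-hfr131 replicates 1, 2 and 3 had 15.2, 73.2 and 217 TPM, against 7.28, 60.3 and 10.4 TPM in 187R replicates 1, 2 and 3. Both lines spanned several-fold ranges that overlapped, and within 187R the library numbered 2 stood above the others. The highest 187R library was 8.29 times the lowest, a log2 range of 2.89 that only 30 of the 21531 tested genes reached, where the median tested gene had 0.225. NIL-hfr131 replicates 1 and 2 differed by 2.20 on the log2 scale, and 18 tested genes differed by that much or more. The means, 102 ± 104 TPM in NIL-hfr131 and 26.0 ± 29.8 TPM in 187R (SD, n = 3 each), gave the highest log2 fold change of the 10 genes, 1.83, with the highest standard error, 1.08 (adjusted p = 0.694, limma). It was 0.95 (SE 0.92, adjusted p = 0.711) without NIL-hfr131 replicate 3, so for *OsCesA3* no difference beyond the spread between libraries was found in either fit.

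The remaining synthases, *OsCesA2*, *OsCesA5* and *OsCesA6*, are not among the genes assigned above to either wall. *OsCesA6* (LOC_Os07g14850, chromosome 7) had 103, 119 and 276 TPM in the NIL-hfr131 libraries, against 89.9, 84.9 and 93.3 TPM in the 187R libraries. All 3 NIL-hfr131 libraries were above all 3 of 187R, by a small margin for replicate 1. On average NIL-hfr131 had 166 ± 95.7 TPM and 187R 89.4 ± 4.21 TPM (SD, n = 3 each), which corresponded to a log2 fold change of 0.74 (SE 0.35, adjusted p = 0.641, limma) and to 0.31 (SE 0.093, adjusted p = 0.190) without replicate 3.

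*OsCesA5* (LOC_Os03g62090, chromosome 3) had 74.8, 82.2 and 234 TPM in the NIL-hfr131 libraries and 70.2, 74.9 and 78.5 TPM in the 187R libraries. Its lines overlapped, and replicates 1 and 2 of NIL-hfr131 were 1.05 times the 187R mean. Means were 130.4 ± 90.0 TPM in NIL-hfr131 and 74.5 ± 4.15 TPM in 187R (SD, n = 3 each), with a log2 fold change of 0.60 (SE 0.41, adjusted p = 0.694, limma) that was 0.074 (SE 0.087, adjusted p = 0.766) without replicate 3.

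*OsCesA2* (LOC_Os03g59340, chromosome 3) was the gene whose direction depended on a single library. It had 33.7, 28.9 and 89.9 TPM in the NIL-hfr131 libraries, against 32.8, 36.6 and 36.8 TPM in the 187R libraries. NIL-hfr131 replicate 2 was the lowest of all 6 libraries and replicate 3 the highest. NIL-hfr131 averaged 50.9 ± 33.9 TPM and 187R 35.4 ± 2.21 TPM (SD, n = 3 each), a log2 fold change of 0.33 (SE 0.40, adjusted p = 0.737, limma), and without NIL-hfr131 replicate 3 the value turned to -0.17 (SE 0.10, adjusted p = 0.496).

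**Figure D2:**
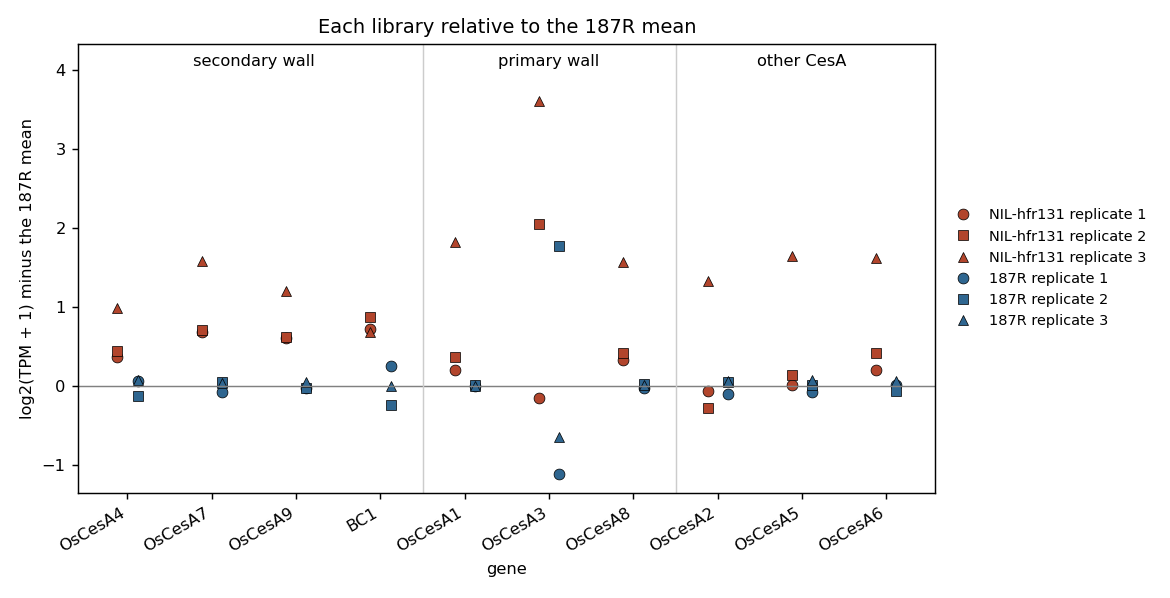
Level of each gene in each library as log2(TPM + 1) minus the mean of the 3 187R libraries, with NIL-hfr131 in red left of 187R in blue, and genes grouped by the wall they serve. NIL-hfr131 replicate 3 (red triangles) lies 0.68 to 3.60 above the 187R mean, and replicates 1 and 2 of NIL-hfr131 lie close together in every gene except OsCesA3.

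Seen by library, the secondary-wall genes and the other synthases parted in NIL-hfr131 replicate 3 relative to replicates 1 and 2, but not relative to 187R. In that library, 8 of the 10 genes were more than 1 above the 187R mean on the log2 scale, with a median of 1.57 and a range of 0.68 to 3.60, where the median of all tested genes was 0.16. The exceptions were *OsCesA4* and *BC1*. *OsCesA7*, at 3.01 times the 187R mean, lay above *OsCesA2* (2.54 times) and *OsCesA8* (2.97 times), so the groups did not separate relative to 187R. Relative to the mean of NIL-hfr131 replicates 1 and 2, the level in replicate 3 was 2.31 to 4.92 times as high in *OsCesA1*, *OsCesA2*, *OsCesA3*, *OsCesA5*, *OsCesA6* and *OsCesA8*, and 1.50 to 1.86 times as high in *OsCesA4*, *OsCesA7* and *OsCesA9*. In *BC1* it was 0.924 times as high. What set this library apart was not tested.

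NIL-hfr131 replicates 1 and 2 showed smaller differences. On their mean, of the 10 genes, 0 were more than 1 above the 187R mean on the log2 scale, the range was -0.17 to 0.95 and the median 0.38, where the median of all tested genes was -0.03. *BC1*, *OsCesA7* and *OsCesA9* were 1.73, 1.62 and 1.54 times the 187R mean in these libraries, and *OsCesA3*, whose libraries scattered most, was 1.70 times as high. *OsCesA4* and *OsCesA8* were close to each other at 1.32 and 1.29 times, *OsCesA6* and *OsCesA1* were at 1.24 and 1.22 times, and *OsCesA5* and *OsCesA2* at 1.05 and 0.885 times. The median log2 fold change of the 4 secondary-wall genes was 0.78 with all libraries and 0.65 without replicate 3. That of *OsCesA1*, *OsCesA3* and *OsCesA8* was 0.79 with all libraries and 0.36 without replicate 3, and that of *OsCesA2*, *OsCesA5* and *OsCesA6* was 0.60 and 0.074. The difference between these groups of genes was not tested.

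**Figure D3:**
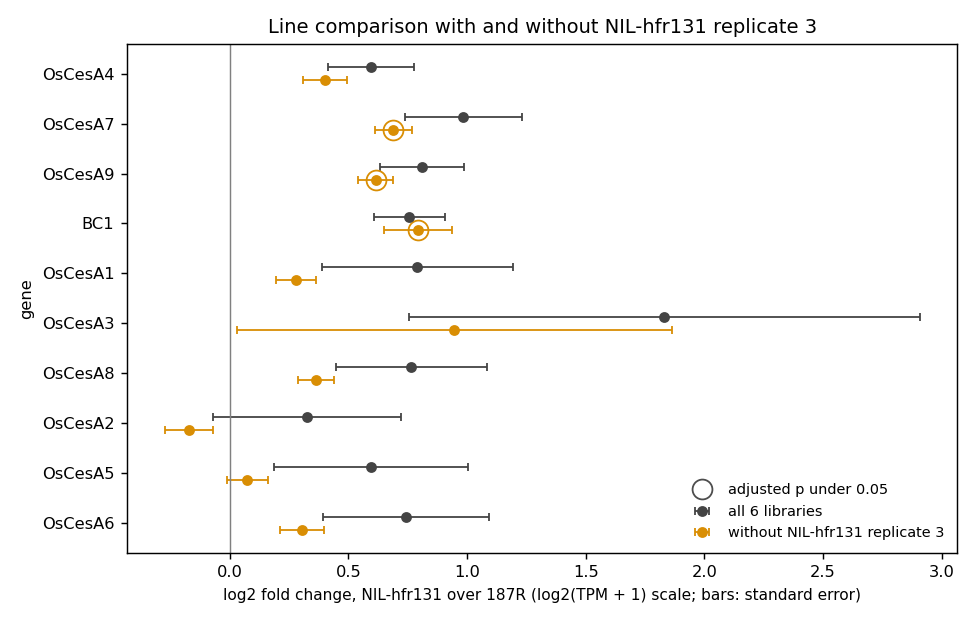
Log2 fold change of NIL-hfr131 over 187R on the log2(TPM + 1) scale for each gene, with bars for the standard error from limma, for all 6 libraries (dark) and without NIL-hfr131 replicate 3 (orange), with circles around values at an adjusted p under 0.05. Only OsCesA7, OsCesA9 and BC1 are circled, all without that replicate, and OsCesA2 crosses 0.

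*OsCesA1* was the highest and *OsCesA8* the second highest of the 10 genes within each of the 6 libraries. In NIL-hfr131 the means ran from *OsCesA1* (447 TPM) through *OsCesA8*, *OsCesA6*, *OsCesA7*, *OsCesA4*, *OsCesA5*, *OsCesA9*, *BC1* and *OsCesA3* to *OsCesA2* (50.9 TPM), and every neighbouring pair overlapped. Without replicate 3, *OsCesA1* (274 TPM) and *OsCesA8* (241 TPM) no longer overlapped with each other or with the rest, and *OsCesA4*, *BC1*, *OsCesA7*, *OsCesA9* and *OsCesA6* lay between 111 and 118 TPM. In 187R, *OsCesA1* (225 TPM) was above *OsCesA8* (187 TPM) in every library, and *OsCesA8* was above the rest. *OsCesA6* and *OsCesA4* came next (89.4 and 89.0 TPM) and did not differ beyond their spread. *OsCesA5*, *OsCesA9*, *OsCesA7* and *BC1* followed at 67.3 to 74.5 TPM with overlapping neighbours, and *OsCesA2* and *OsCesA3* were lowest and overlapped with each other.

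The summed level of the 9 synthases was 1057, 1191 and 2725 TPM in the NIL-hfr131 libraries, against 838, 898 and 874 TPM in the 187R libraries. The lines did not overlap in this sum, and NIL-hfr131 replicate 3 had the highest. The secondary-wall sum (*OsCesA4*, *OsCesA7*, *OsCesA9* and *BC1*) was 450.3, 471 and 666 TPM in NIL-hfr131 and 309.8, 282 and 308 TPM in 187R. The primary-wall sum (*OsCesA1*, *OsCesA3* and *OsCesA8*) was 506, 611 and 1567 TPM in NIL-hfr131 and 414, 475 and 424 TPM in 187R. Both sums were thus higher in each NIL-hfr131 library than in each 187R library.

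The balance between the 2 kinds of wall gene, a ratio within a library that scaling cannot alter, did not separate the lines. The secondary-wall sum over the primary-wall sum was 0.890, 0.771 and 0.425 in the NIL-hfr131 libraries, against 0.748, 0.592 and 0.727 in the 187R libraries. NIL-hfr131 held both the highest and the lowest value, and the means were 0.695 ± 0.241 in NIL-hfr131 and 0.689 ± 0.0844 in 187R (SD, n = 3 each). Taken without *BC1* and *OsCesA3*, as *OsCesA4*, *OsCesA7* and *OsCesA9* over *OsCesA1* and *OsCesA8*, a form chosen after the values were seen, the ratio was 0.692, 0.649 and 0.414 in NIL-hfr131 and 0.566, 0.544 and 0.584 in 187R. Here replicates 1 and 2 of NIL-hfr131 were above and replicate 3 below all 187R libraries.

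The secondary-wall synthases lay within 1.38 times of one another in every library, and were closest in NIL-hfr131 replicates 1 and 2. In each 187R library *OsCesA4* was the highest of them. The highest of *OsCesA4*, *OsCesA7* and *OsCesA9* was 1.03, 1.08 and 1.28 times the lowest in the NIL-hfr131 libraries, against 1.38, 1.14 and 1.28 times in the 187R libraries. These levels are per gene length, and their products are thought to work as partners in 1 complex. *BC1* was 0.976, 1.05 and 0.578 times the mean of the 3 in NIL-hfr131 and 1.03, 0.744 and 0.828 times in 187R, lowest in NIL-hfr131 replicate 3. *OsCesA1* over *OsCesA8* was 1.10, 1.17 and 1.43 in NIL-hfr131 and 1.23, 1.19 and 1.20 in 187R, so *OsCesA1* was the higher in all 6 libraries. *OsCesA3* made up 1.43%, 6.15% and 7.97% of the summed synthase level in NIL-hfr131 and 0.868%, 6.72% and 1.19% in 187R.

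Across the 6 libraries, log2 levels of *OsCesA4*, *OsCesA7* and *OsCesA9* had pairwise Pearson correlations of 0.973 to 0.994, and their correlations with *BC1* were 0.725 to 0.794. Without NIL-hfr131 replicate 3 these were 0.905 to 0.993 and 0.872 to 0.978, so the lower values with *BC1* went with that library. High correlations were not particular to the secondary-wall synthases. *OsCesA1*, *OsCesA6* and *OsCesA8* correlated with them at 0.891 to 0.963 over 6 libraries and 0.875 to 0.991 over 5. For *OsCesA2*, *OsCesA3* and *OsCesA5* the values were lower, 0.661 to 0.873 over 6 libraries and -0.77 to 0.566 over 5. The 6 other synthases correlated at 0.648 to 0.996 with each other and at 0.159 to 0.568 with *BC1* over 6 libraries. Without that replicate their ranges widened to -0.84 to 0.971 with each other and -0.84 to 0.914 with *BC1*. *OsCesA1*, *OsCesA6* and *OsCesA8* stayed correlated with each other in those 5 libraries (0.919 to 0.971). *OsCesA2* was negatively correlated there with each of the other synthases of this group (-0.84 to -0.34). These are descriptions over 6 or 5 libraries that share the difference between the lines and, over 6, the deviation of NIL-hfr131 replicate 3. Outside the 10 genes, those most like the mean of the secondary-wall group were LOC_Os08g03350, LOC_Os02g47020, LOC_Os06g20040, LOC_Os05g48360 and LOC_Os01g70200, at correlations of 0.995 to 0.997 over 6 libraries. In all, 671 tested genes reached 0.9, and 1 of the 5 named ones (LOC_Os02g47020) was still among the nearest 5 without NIL-hfr131 replicate 3. Nearest to the mean of the primary-wall group were LOC_Os01g08270, LOC_Os04g36570, LOC_Os08g37940, LOC_Os04g58580 and LOC_Os01g56780, at 0.991 to 0.997, among 1077 genes that reached 0.9, and LOC_Os01g08270 stayed among the nearest 5 without that replicate.

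Other genes of wall building were read from a separate list, with no test of the lists against each other. The list held 31 wall genes from general knowledge and covered cellulose deposition, regulators of the secondary wall, lignin synthesis, xylan synthesis, cellulose synthase-like enzymes and the remaining *CesA* loci, and 27 of them were tested. In limma, 0 of the 27 passed at an adjusted *P* under 0.05, and at an unadjusted *P* under 0.05, 6 were higher and 0 lower in NIL-hfr131, where 4.05% of all tested genes were higher. Of the 27, 11 had every NIL-hfr131 library above every 187R library, against 8.59% of all tested genes. The median log2 fold change was 0.24, against 0.05 over all tested genes. Without NIL-hfr131 replicate 3 it was 0.19 against -0.03, and 9 of 26 genes were higher at an unadjusted *P* under 0.05 and 15 of 26 lay apart, where the shares of all tested genes were 6.91% and 13%. In those 5 libraries 1 of the 26 genes rose at an adjusted *P* under 0.05, where 1.31% of all tested genes did. This gene was *Os4CL3* (LOC_Os02g08100), which encodes a ligase that feeds the lignin pathway. It had 193, 209 and 242 TPM in the NIL-hfr131 libraries and 147, 137 and 145 TPM in the 187R libraries, a pattern without overlap. Its log2 fold change was 0.57 (SE 0.12, adjusted p = 0.201, limma) with all libraries and 0.48 (adjusted p = 0.0354) without replicate 3. Among all genes it ranked 9 in likeness to the secondary-wall group (correlation of 0.994 over 6 libraries).

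By list, the 7 lignin synthesis genes ranged up to *Os4CL3* and down to *OsCAD2* (LOC_Os02g09490, an alcohol dehydrogenase that makes lignin monomers) at a log2 fold change of -0.087, with a median of 0.24. *OsCAD2* had 301, 250.3 and 138 TPM in the NIL-hfr131 libraries and 224, 244 and 228 TPM in the 187R libraries, and without replicate 3 its value was 0.24. The 3 xylan synthesis genes had a median of 0.30, between *OsIRX9* (LOC_Os07g49370) at -0.049 and *OsIRX14* (LOC_Os06g47340) at 0.43 (adjusted p = 0.545, limma), both glycosyltransferases of the xylan backbone. Without replicate 3, *OsIRX9* was at 0.16, *OsIRX14* at 0.26 and the xylan median at 0.19, and the lignin median was 0.28. Apart from *Os4CL3* without that replicate, none of these genes passed the test.

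The 7 cellulose deposition genes had a median log2 fold change of 0.24, or 0.095 without NIL-hfr131 replicate 3. Their highest was LOC_Os05g32110 at 1.00 (adjusted p = 0.465, limma) and 0.70 without that replicate, with 208, 389 and 531 TPM in the NIL-hfr131 libraries and 184, 162 and 179.8 TPM in the 187R libraries, and their lowest LOC_Os02g40030 at -0.18. The 6 secondary wall regulators had a median of 0.22, or 0.16 without that replicate, from LOC_Os08g02300 at -0.038 to LOC_Os08g05520 at 1.16 (adjusted p = 0.457) and 0.86 without it. LOC_Os08g05520 had 7.55, 11.9 and 18.7 TPM in NIL-hfr131 and 6.84, 2.98 and 5.29 TPM in 187R, apart in all libraries but by a small margin.

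Cellulose synthase-like genes encode relatives of the synthases that make other wall polysaccharides or act in special cells. Of the 6 listed, 4 were tested, with a median log2 fold change of 0.44. Without NIL-hfr131 replicate 3 the median was -0.070, over the tested genes other than *OsCslD1*. *OsCslF6* (LOC_Os08g06380) had the widest spread of the 4, from 43.9 TPM in 187R replicate 3 to 592 TPM in NIL-hfr131 replicate 2. Its log2 fold change was 0.67 (SE 1.00) with all libraries and 1.28 (SE 0.97) without NIL-hfr131 replicate 3. Values ran from *OsCslD4* (LOC_Os12g36890) at 0.055 to *OsCslD1* (LOC_Os10g42750) at 0.68 (adjusted p = 0.310, limma), and *OsCslD1* was below the expression filter without that replicate. The 2 remaining *CesA* loci, LOC_Os12g29300 and LOC_Os06g39970, were below the filter too, and together had 0.567, 0.450 and 0.943 TPM in NIL-hfr131 and 0.527, 0.425 and 0.780 TPM in 187R. They were a very small share of the cellulose synthase transcripts of these panicles.

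**Figure D4:**
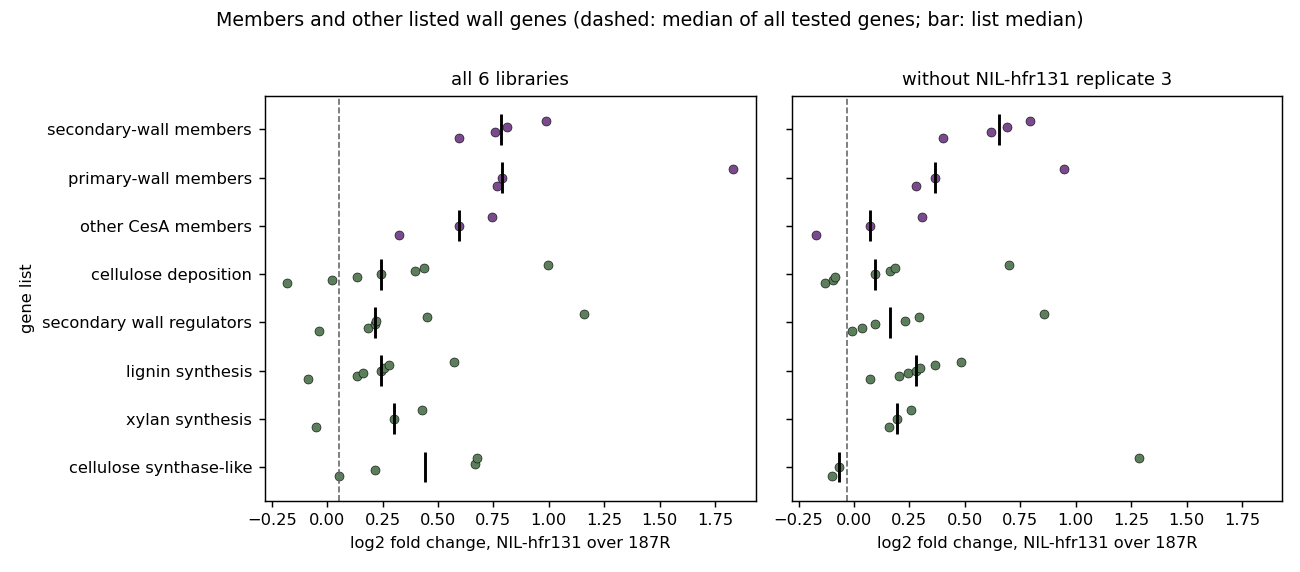
Log2 fold change of NIL-hfr131 over 187R for the 10 genes (purple) and the other tested wall genes (green), 1 point per gene and 1 row per list, with all 6 libraries on the left and without NIL-hfr131 replicate 3 on the right, where the black bar is the list's median and the dashed line the median of all tested genes (0.05 and -0.03). The 4 secondary-wall genes keep a median of 0.65 on the right, above those of the other lists, which lie between -0.070 and 0.36.

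Markers of other tissues moved with the line in part. Of the 6 anther genes of the marker list, 1 rose in NIL-hfr131, *OsC6* (LOC_Os11g37280), which encodes a lipid transfer protein of the anther. It had 1380.4, 1372 and 1211 TPM in the NIL-hfr131 libraries and 414, 440.2 and 509 TPM in the 187R libraries (log2 fold change 1.54, adjusted p = 0.00695, limma, and 1.60 without NIL-hfr131 replicate 3). The 6 anther genes summed to 2751 to 3486 TPM in NIL-hfr131 and 2156 to 2448 TPM in 187R. *OsC6* alone set these sums apart, since the 5 others summed to 1540 to 2106 TPM in NIL-hfr131 and 1742 to 1939 TPM in 187R, with log2 fold changes of -0.21 in *TDR* to 0.32 in *EAT1*. Of the 5 leaf loci listed, 2 rose (LOC_Os12g19381 by 1.65 and LOC_Os12g19470 by 1.61 on the log2 scale). The others did not pass the test, at 0.16 in LOC_Os12g17600, -0.33 in LOC_Os01g41710 and -0.14 in LOC_Os09g17740. The 5 summed to 883 to 1441 TPM in NIL-hfr131, lowest in replicate 3, and 1290 to 1398 TPM in 187R. Most of each sum was LOC_Os01g41710, with 735 to 1224 TPM in NIL-hfr131 and 1187 to 1280 TPM in 187R. None of the marker genes of these lists was at 0 in any library, and the part of tissue make-up in the levels of the cellulose synthase genes and *BC1* was not tested.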

How the data were processed

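Line and replicate number of the 6 panicle libraries, 3 of NIL-hfr131 and 3 of 187R, came from the labels. Total RNA was extracted, messenger RNA libraries were sequenced on an MGISEQ-2000, and the authors deposited 1 TPM value per gene and library for 42189 genes. The aligner, genome build, annotation and the authors' test are not given in the sources used here. The methods speak of FPKM, but every column sums to 1000000, as TPM does. Sequencing depth cannot be read from such values and is unknown, which leaves the replicate spread as the error. All 6 libraries listed 11670 genes at 0, and how reads of near-identical *CesA* copies were assigned is unknown.

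The model used limma 3.58.1 (R 4.3.3) on log2(TPM + 1), a scale that understates the change of low genes, for the 21531 genes averaging 1 TPM or more, with the line as the only term and a trended prior. Tests were two-sided, with Benjamini-Hochberg adjustment over all tested genes and a threshold of 0.05, and were tested on simulated data. The simulation gave each gene the same spread in all 6 libraries, so it held no deviating library like NIL-hfr131 replicate 3. Summaries used pandas 2.3.3 and numpy 2.4.6 under Python 3.11.15, and figures matplotlib 3.10.9. The fit was repeated with median-of-ratios factors or quantile normalization, a constant prior, a replicate block, a pseudocount of 0.1, a filter at 5 TPM or none, and each library left out in turn.

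The 10 genes, the gene lists and the tests were chosen with earlier results of these data known. Named are all 10 genes, and from the other lists those that passed the test and the highest and lowest log2 fold change of each, plus the 5 genes most correlated with the secondary-wall and with the primary-wall group. *OsCslF6* is named for its spread between libraries. Other wall genes are named only where RefSeq (assembly ASM3414082v1) holds the name on the same chromosome, and otherwise by identifier. Of the 10 identifiers 0 matched RefSeq identifiers, so the match rests on names and chromosomes, and no sequences or genome positions are given.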

Additional observations from a re-analysis of the deposited data

How the results depend on the processing

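Of 130 recomputed log2 fold changes of the 10 genes, 126 kept their direction and their side of the threshold. The exceptions all came from leaving out NIL-hfr131 replicate 3: *OsCesA7*, *OsCesA9* and *BC1* passed the threshold, and *OsCesA2* turned to -0.17 (up to 0.63 when another library was left out). Leaving out 1 library moved the number of the 10 genes called between 0 and 3, the number of all genes called between 13 and 384 (66 with all libraries), and the primary-wall median between 0.36 and 1.09. Without that same replicate the direction of 6 other wall genes turned, to -0.13 in LOC_Os09g02650, -0.095 in *OsGLU1*, 0.24 in *OsCAD2*, 0.16 in *OsIRX9*, -0.098 in *OsCslD2* and -0.070 in *OsCslD4*. The cause was not tested. The share of higher calls among all calls was 81.8%, 72.4% without that replicate, and 81.4% to 82.5% under the other scalings.

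The 187R mean of the secondary-wall to primary-wall ratio was 0.534 with *OsCesA4*, *OsCesA7* and *OsCesA9* as the secondary-wall sum, and 0.565 when these were set over *OsCesA1* and *OsCesA8*, since *BC1* no longer counts in the numerator. The second form, and forms without *OsCesA3*, were chosen after seeing the data. Adding the replicate block called 16 genes and 0 of the 10. Same-numbered libraries had correlations of -0.21, 0.060 and 0.090 in their deviations from the group means, and not every library correlated best with its own number. Deviations from the mean of so few libraries are not independent within a line. They therefore cannot decide whether same-numbered libraries share more than a number. Depth is unknown, so counting error cannot be set beside these values. The promoter motif search was not run.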
